A study of Homo sapiens with 48 samples.

Results

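SOD2, PTGS2, NOS2, HMOX1, FTH1, GCH1 and PTGES are 7 of the 20007 protein-coding genes of GENCODE 44, and they encode enzymes and an iron-storage protein that cells use under inflammatory and oxidative stress. They were taken by name, and every peak that overlapped a gene body or the 50 kb on either side of it was assigned to that gene. Chromatin immunoprecipitation followed by sequencing (ChIP-seq) had been performed in L3.6pl, a human pancreatic ductal adenocarcinoma cell line, with antibodies to the NF-κB subunits RELA and RELB, to the AP-1 subunit FOSL1 and to histone H3 acetylated on lysine 27 (H3K27ac). RELA, RELB and H3K27ac were each profiled after vehicle (PBS), after TNFα for 30 min or 6 h, and after TWEAK, the TNF-like weak inducer of apoptosis, for 30 min or 6 h, and FOSL1 was profiled after vehicle alone. Both ligands were used at 10 ng/ml, and the labels do not give the duration of the vehicle treatment. The 48 samples formed 16 conditions of 3 replicates, and each condition was represented by 1 merged peak list. The labels name no engineered change in the cells, and all samples came from this single line grown in culture.

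TNFα acts mainly through the canonical NF-κB pathway, in which RELA is freed from its inhibitor and enters the nucleus within minutes. TWEAK acts mainly through the noncanonical pathway, in which processing of the p100 precursor lets RELB enter the nucleus over hours. Both subunits bind κB sites in promoters and enhancers, AP-1 factors bind a different motif, and H3K27ac marks active promoters and enhancers. SOD2 and PTGS2 are textbook NF-κB targets in many cell types, and NOS2 is the inducible nitric oxide synthase of macrophages and epithelia.

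Because each condition had 1 list, no value has a replicate error and no difference between conditions was tested. The depth of the libraries is unknown from the lists, and a place absent from a list was not listed at the q cut-off of 0.05, which is not the same as no binding. For the broad H3K27ac peaks the listed q can lie above 0.05. A peak in the SOD2 window at 6 h of TWEAK has a −log10 q value of 1.04. The value given for a peak is its fold enrichment over input, the seventh column of the list, and it is read within its own list. The peak names of the RELA list at 30 min of TNFα hold a replicate mark beside the word merged, so it cannot be told whether that list used all 3 replicates. In bulk chromatin, fewer bound cells and weaker binding per cell cannot be told apart. Over the 10 RELA and RELB lists, 26.3% to 94.7% of the regions lay in tandem repeats, but none of the 22 sites near the 7 genes did. H3K27ac covered the starts of 6 of 6 epithelial and ductal marker genes in vehicle and of 1 of 8 markers of other cell types, which was CD68.

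Merging overlapping RELA and RELB regions gave 22 sites in the 7 windows, of which the RELA list at 30 min of TNFα held 21. Each site is named here by its gene and by the distance of its strongest summit from the start of the gene's canonical transcript. The hg38 sequence around the strongest RELA summit of each gene at 30 min of TNFα is shown because these are the places on which the results turn. Capitals mark exact matches to the NF-κB consensus (10 letters) and to the AP-1 motif TGAGTCA on either strand, where it reads TGACTCA on the other, and all sequences are from the plus strand. A stretch that differed from a motif at any letter was not counted as a match. For SOD2 only 30 bases are shown.

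SOD2, 1.98 kb downstream, chr6:159691232-159691261: tttcacaactGGGGTATTCCccagtctctc
PTGS2, 35.6 kb upstream, chr1:186715971-186716071: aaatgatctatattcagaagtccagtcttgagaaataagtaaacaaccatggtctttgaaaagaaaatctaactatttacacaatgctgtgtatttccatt
PTGES, 50.26 kb downstream, chr9:129702729-129702829: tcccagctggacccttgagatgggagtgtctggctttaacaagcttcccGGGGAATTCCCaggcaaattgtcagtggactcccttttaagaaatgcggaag
NOS2, 28.8 kb upstream, chr17:27829269-27829369: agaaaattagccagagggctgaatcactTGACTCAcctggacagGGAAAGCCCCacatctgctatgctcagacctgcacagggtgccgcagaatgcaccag
GCH1, 9.37 kb downstream, chr14:54893403-54893503: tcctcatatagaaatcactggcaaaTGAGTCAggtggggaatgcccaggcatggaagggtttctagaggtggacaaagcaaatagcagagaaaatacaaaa
HMOX1, 50.02 kb downstream, chr22:35431050-35431150: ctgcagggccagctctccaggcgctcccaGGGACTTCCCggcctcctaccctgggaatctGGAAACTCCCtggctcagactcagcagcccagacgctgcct
FTH1, 5.20 kb upstream, chr11:61972783-61972883: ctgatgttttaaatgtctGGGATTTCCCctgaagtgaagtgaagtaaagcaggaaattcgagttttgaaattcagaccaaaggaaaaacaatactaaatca

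Of these sequences, 4 hold a κB match without an AP-1 match, the NOS2 sequence holds both, the GCH1 sequence holds an AP-1 match alone, and the PTGS2 sequence holds neither. Another 2 sites were chosen after their values were seen, because the first is a PTGS2 site with both motifs and the second was bound by RELB after TWEAK.

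PTGS2, 28.57 kb upstream, chr1:186708954-186709054: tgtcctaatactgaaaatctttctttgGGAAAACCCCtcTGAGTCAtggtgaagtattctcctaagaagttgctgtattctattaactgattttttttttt
NOS2, 39.98 kb upstream, chr17:27840464-27840564: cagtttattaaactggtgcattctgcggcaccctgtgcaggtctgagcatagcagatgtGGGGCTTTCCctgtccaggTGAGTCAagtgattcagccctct

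Both NOS2 sequences are the same stretch of DNA in opposite orientation. The stretch around the site 28.8 kb upstream, chr17:27829134-27830033, was identical to the reverse complement of chr17:27839812-27840711 at 898 of 900 bases, and 9.78 kb separated the copies. All 152 of the 50-base stretches in the 201 bp around either summit occurred in both copies and nowhere else in hg38. Reads were paired and 50 bases long, so a single read inside these stretches fits both copies. How pairs with a mate outside the copies were placed is not given, so from the lists alone binding at the 2 copies cannot be told apart. The main counts over the 7 genes that include both copies are also given with the pair counted once, that is without the copy farther from the start. For 17 of the 22 sites every such stretch was unique, and the other exceptions were the GCH1 site 32.26 kb downstream (48.0% of stretches found elsewhere), the NOS2 site 29.55 kb upstream (35.5%) and the PTGS2 site 42.82 kb downstream (12.5%).

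RELA was listed near all 7 genes after TNFα. The windows held 2 RELA regions in vehicle, 21 after TNFα for 30 min and 14 after TNFα for 6 h, and 3 and 2 after the same times of TWEAK. With the NOS2 pair counted once, the TNFα counts were 20 and 13. By gene, 2 of the 7 had a RELA region in vehicle, against 5.05% of all protein-coding genes with the same window rule. At 30 min of TNFα 7 of 7 had a RELA region, against 48.1%, and at 6 h 7 of 7 had a RELA region, against 26.8%. After TWEAK 3 of 7 had a RELA region at 30 min, against 7.58%, and 2 of 7 at 6 h, against 5.11%. The 7 genes were listed more often than the genome at large in all 5 RELA lists. These lists are not separate evidence, because the same HMOX1 and GCH1 sites were listed in all of them. The genes were also chosen with earlier results of these data known.

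RELB was listed at fewer places. RELB regions numbered 1 in vehicle, 1 and 2 after the shorter and longer TNFα treatment, and 0 and 5 after the shorter and longer TWEAK treatment, where the last count was 4 with the NOS2 pair counted once. The genes with a RELB region were 1 of 7 in vehicle (3.06% of all genes). TNFα gave 1 of 7 at 30 min (1.58%) and 2 of 7 at 6 h (3.87%), and TWEAK gave 0 of 7 at 30 min (1.39%) and 3 of 7 at 6 h (13.6%). The 3 genes at 6 h of TWEAK were NOS2, HMOX1 and GCH1, and SOD2, PTGS2, FTH1 and PTGES were in none of the 5 RELB lists.

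**Figure D1:**
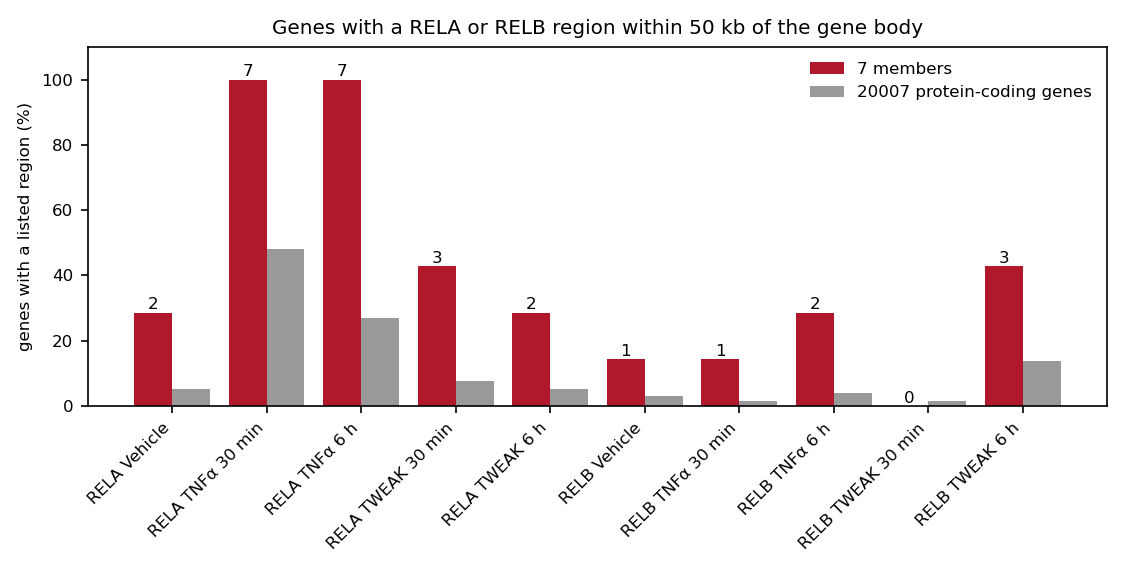
The percentage of genes (vertical axis) with at least 1 listed RELA or RELB region within 50 kb of the gene body, for each of the 10 lists (horizontal axis), with the 7 members in red (their number above the bar) and all 20007 protein-coding genes in grey. The red bars stand at 7 of 7 after TNFα in the RELA lists, and at 3 of 7 for RELB at 6 h of TWEAK.

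At the main settings the 7 genes also differed from the genome in the number of RELA regions each had. At 30 min of TNFα 6 of the 7 had 3 or more RELA regions, against 9.25% of all genes, and the exception was HMOX1 with 1 region. The number 3 was chosen after the counts were seen. The 6 genes fell to 3 with peaks of at least 5-fold and to 2 with 10 kb windows, where no share over all genes was computed. Window length bears on such a count, and the median window was 115 kb for the 7 genes and 127 kb for all genes. The median fold enrichment of the 21 regions was 7.68, against 5.93 over the whole list and 6.21 over its regions outside tandem repeats. At 6 h of TNFα the 14 regions had a median of 7.08, against 5.74 and 6.39.

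**Figure D2:**
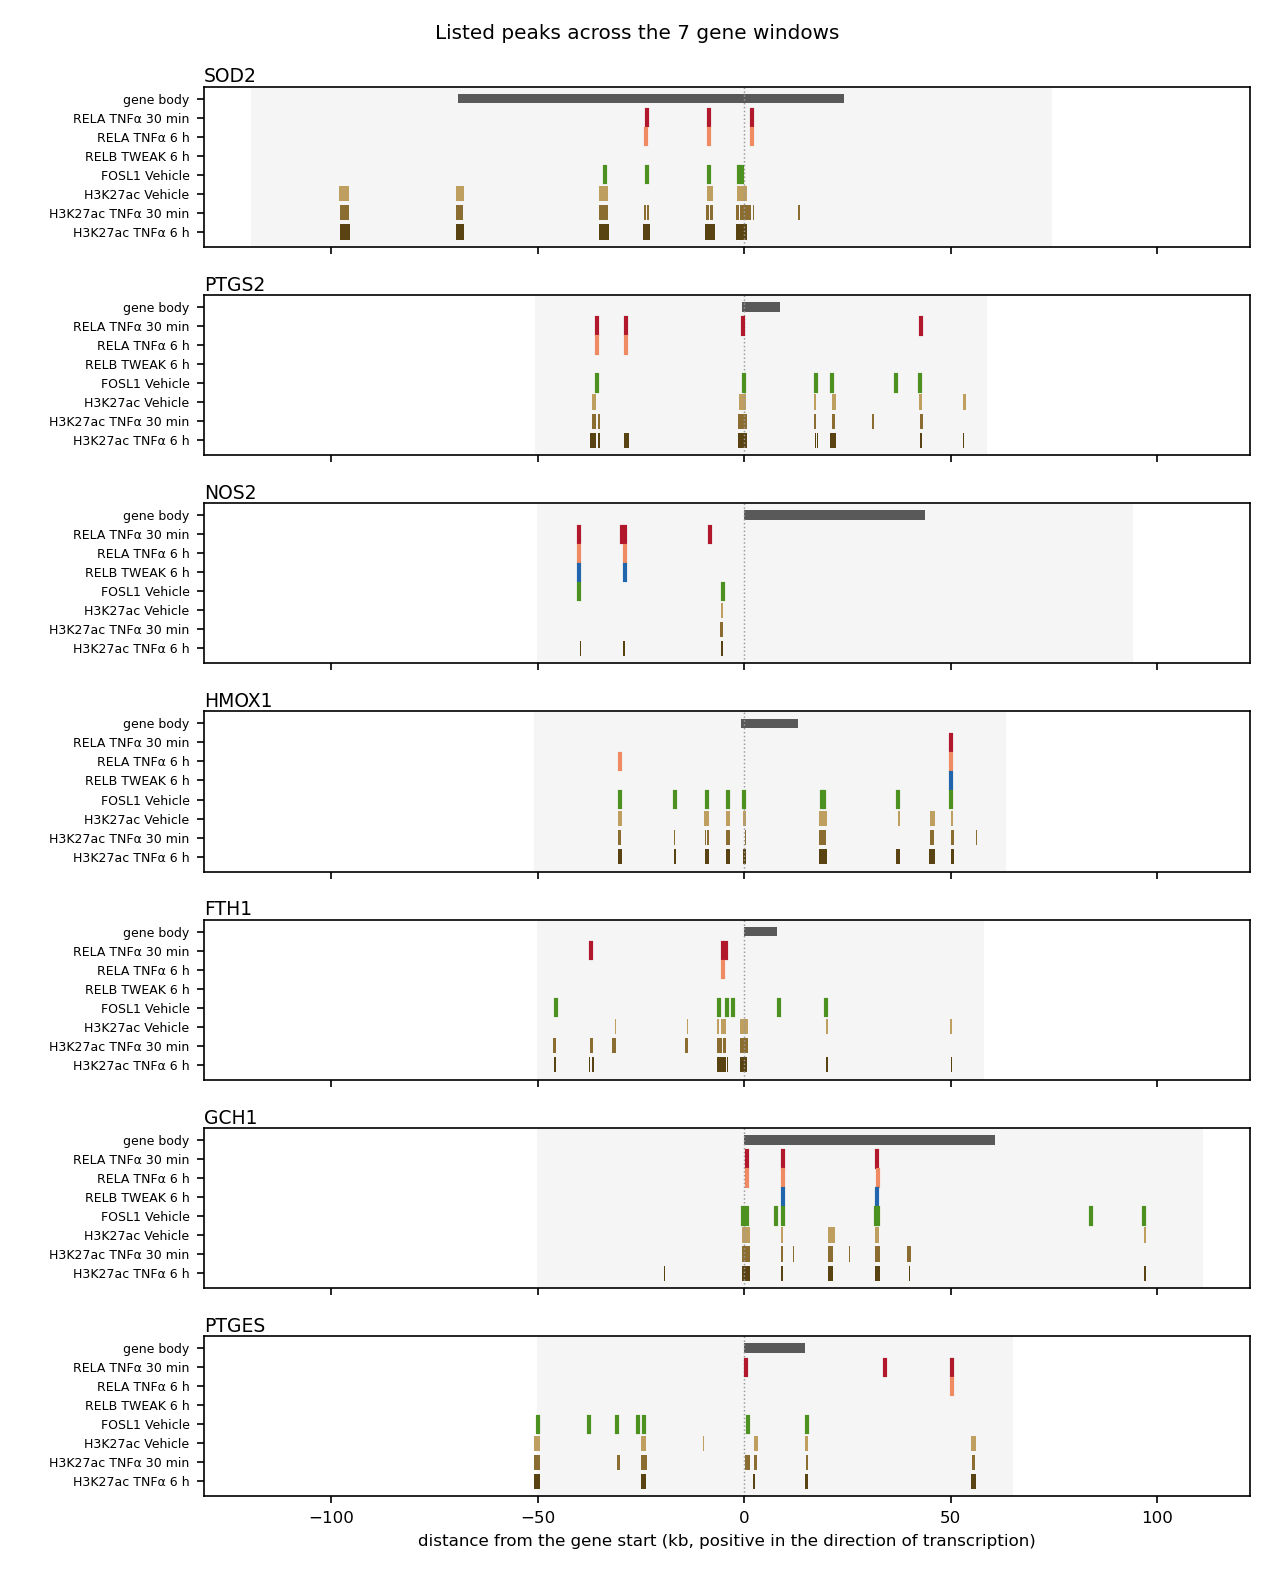
Listed peaks in the 7 gene windows against distance from the gene start in kb (horizontal axis, to scale). Grey shading is the window, the dark bar the gene body, thick marks of fixed width the RELA, RELB and FOSL1 peaks, and boxes drawn to scale the H3K27ac peaks. RELA marks at 30 min of TNFα appear in every window, whereas RELB marks at 6 h of TWEAK appear only in the NOS2, HMOX1 and GCH1 windows.

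SOD2, the manganese superoxide dismutase of mitochondria, lies on chromosome 6 from 159669069 to 159762529 on the minus strand, and its window also holds WTAP, ACAT2, TCP1, MRPL18 and PNLDC1. The strongest SOD2 region was 1.98 kb downstream of the start, in intron 2 of the canonical transcript, and 1 of the 15 annotated SOD2 transcripts has an untranslated region there. RELA was listed at this site with 16.2-fold enrichment at 30 min of TNFα, rank 362 of 11266 regions, and with 7.13-fold at 6 h of TNFα. It was absent from the other 8 RELA and RELB lists and from the FOSL1 list. The κB match of the sequence shown above lies 12 bp from the summit. H3K27ac was listed near the site only at 30 min of TNFα, as a weak peak of 323 bp and 1.52-fold that ended 100 bp from the summit, and as the 2711 bp peak over the SOD2 start, at 2.26-fold, that ended 384 bp from it. In vehicle the peak over the start was 2383 bp long at 3.16-fold and did not come within 500 bp of the summit.

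The other SOD2 sites were upstream and lay on FOSL1. The site 8.42 kb upstream had 9.78-fold RELA at 30 min and 7.45-fold at 6 h of TNFα, with an 8.31-fold FOSL1 peak whose summit was 13 bp away. The site 23.68 kb upstream had 4.94-fold and 5.78-fold, with a 5.34-fold FOSL1 peak 5 bp away, and the nearest coding start was that of WTAP, a subunit of the RNA methylation machinery, at 10.58 kb. Both hold an AP-1 match and no κB match, and both lie upstream of the canonical start but within the gene body, which longer transcripts extend. H3K27ac was listed in all 5 conditions at the first and only after TNFα, at both times, at the second.

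PTGS2, the inducible cyclooxygenase that starts prostaglandin synthesis, lies on chromosome 1 from 186671791 to 186680922 on the minus strand, and no other coding gene reaches its window. It had 4 RELA regions at 30 min of TNFα and none in vehicle, after TWEAK, or for RELB. The strongest was 35.6 kb upstream, at 9.05-fold at 30 min and 4.67-fold at 6 h. Its sequence holds neither motif, a 4.22-fold FOSL1 peak overlapped it with a summit 97 bp away, and H3K27ac was listed in all 5 conditions at 3.27-fold to 4.06-fold.

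The remaining PTGS2 regions differed in time and in chromatin. The promoter site, 0.26 kb upstream of the canonical start, was listed only at 30 min of TNFα, at 6.80-fold, on a 5.79-fold FOSL1 peak and under H3K27ac in all 5 conditions. The site 28.57 kb upstream had 6.93-fold at 30 min and 9.28-fold at 6 h of TNFα, no FOSL1 peak, and H3K27ac at 6 h of TNFα alone, at 2.67-fold. It was the only PTGS2 site with both a κB and an AP-1 match, and the 2 matches were 2 bp apart in the sequence shown above. The site 42.82 kb downstream was listed at 30 min alone, at 4.83-fold.

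PTGES, which converts the cyclooxygenase product to prostaglandin E2, lies on chromosome 9 from 129738331 to 129753042 on the minus strand, with PRRX2, a homeobox gene, in its window. It had 3 RELA regions at 30 min of TNFα and 1 at 6 h. The strongest, 50.26 kb downstream and inside PRRX2, had 9.06-fold at 30 min and 5.60-fold at 6 h of TNFα, and 6.34-fold at 30 min of TWEAK. Neither FOSL1 nor H3K27ac was listed there in any condition, and the PRRX2 start was 37.13 kb away. The site 34.06 kb downstream, also inside PRRX2 and without H3K27ac, was listed at 30 min of TNFα alone, at 7.35-fold.

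The PTGES promoter region was the one place among the 7 genes where a start gained an H3K27ac peak. RELA was listed 0.51 kb downstream of the start, in intron 1, at 4.04-fold and at 30 min of TNFα alone. At that time an H3K27ac peak of 1173 bp and 2.64-fold lay beside the start. No H3K27ac peak was listed at the start in vehicle, at the later TNFα time or after TWEAK. This region was singled out after its value was seen, and it was among the weakest of the 21, which ran from 3.70-fold to 22.1-fold. Its RELA call had a −log10 q value of 2.96 and rank 10313 of 11266 by fold enrichment. The H3K27ac peak had a −log10 q value of 2.75 and rank 39977 of 53895. Neither call met a q of at most 0.001, so the gain depends on the cut-off of 0.05.

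NOS2, the inducible nitric oxide synthase, lies on chromosome 17 from 27756766 to 27800529 on the minus strand, and its upstream sites lie inside a coding gene model that has no symbol. All 4 of its RELA regions at 30 min of TNFα were upstream, and the start carried neither FOSL1 nor H3K27ac in any list. RELA had 8.37-fold at 30 min and 11.5-fold at 6 h of TNFα at the site 28.8 kb upstream, and 8.30-fold and 9.96-fold at the site 39.98 kb upstream. RELB had 8.39-fold and 7.89-fold there at 6 h of TWEAK, and 5.35-fold at 6 h of TNFα at the second site alone. These are the inverted copies, with the same κB and AP-1 matches in the sequences shown above, so their like values cannot be counted as separate measurements. A 3.86-fold FOSL1 peak was listed at the copy 39.98 kb upstream and none at the other, and the same limit holds for this difference.

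H3K27ac was sparse at the NOS2 sites. None of the 4 had an H3K27ac peak within 500 bp of the summit in vehicle or at 30 min of TNFα. Once TNFα had acted for 6 h, 3 of the 4 had a peak, at 2.68-fold for the sites 28.8 and 29.55 kb upstream, which share 1 peak of 441 bp, and at 3.21-fold for the site 39.98 kb upstream. The 2.68-fold and 3.21-fold peaks lie inside the inverted copies, so they cannot be counted as separate measurements. At 6 h of TWEAK a peak of 280 bp and 3.29-fold, also inside a copy, lay near the sites 28.8 and 29.55 kb upstream. At 30 min of TWEAK a 2.58-fold peak lay near the site 29.55 kb upstream alone. The site 8.28 kb upstream, which holds a κB match, was listed for RELA at 30 min of TNFα alone, at 7.68-fold, and had no H3K27ac in any list.

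GCH1, the first enzyme of the synthesis of tetrahydrobiopterin, the cofactor that nitric oxide synthases need, lies on chromosome 14 from 54842008 to 54902826 on the minus strand, with SAMD4A and WDHD1 in its window. Its 3 sites were all in intron 1, and RELA was listed at each at both TNFα times. The site 9.37 kb downstream was the strongest and was called in all 5 RELA lists. RELA had 5.86-fold in vehicle, 17.0-fold at 30 min of TNFα, rank 289 of 11266, and 13.8-fold at 6 h, and TWEAK gave 7.77-fold at 30 min and 4.67-fold at 6 h. RELB was listed there at 6 h of TWEAK alone, at 6.00-fold.

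This GCH1 intron site holds an AP-1 match and no exact match to the κB consensus, as its sequence above shows. That sequence also holds gggaatgccc, a near match to the consensus that was not counted. A 5.66-fold FOSL1 peak had its summit 36 bp away. H3K27ac was listed at the site in all 5 conditions, at 2.68-fold in vehicle, 3.82-fold and 3.09-fold after the shorter and longer TNFα treatment, and 2.68-fold and 2.77-fold after TWEAK in the same order. The site 32.26 kb downstream had 6.58-fold RELA at 30 min and 5.72-fold at 6 h of TNFα, with 7.65-fold RELB at 6 h of TWEAK, beside a 4.27-fold FOSL1 peak. The site 0.60 kb downstream, next to the start, had 9.20-fold and 5.64-fold RELA after TNFα and no RELB.

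HMOX1, the inducible heme oxygenase, lies on chromosome 22 from 35380361 to 35394214 on the plus strand, with TOM1 and MCM5 in its window. It had a single RELA region at 30 min of TNFα, and it was the strongest of the 21. This site is 50.02 kb downstream of the HMOX1 start, outside any coding gene, and the nearest coding start is that of MCM5, a subunit of the replicative helicase, at 30.98 kb. RELA had 5.63-fold in vehicle, 22.1-fold at 30 min of TNFα, rank 58 of 11266, and 18.0-fold at 6 h, and TWEAK gave 6.87-fold at 30 min and 5.88-fold at 6 h. RELB had 5.62-fold in vehicle, 6.42-fold at 30 min and 11.1-fold at 6 h of TNFα, and 24.5-fold at 6 h of TWEAK, rank 13 of 4052.

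The site was thus called in 9 of the 10 RELA and RELB lists, and the list that lacked it was RELB at 30 min of TWEAK. Its sequence above holds 2 κB matches, a 4.05-fold FOSL1 peak had its summit 12 bp away, and H3K27ac was listed in every condition, at 2.36-fold in vehicle, 4.13-fold and 2.74-fold after TNFα, and 2.67-fold and 2.86-fold after TWEAK. Nearer to HMOX1, RELA was listed only 30.13 kb upstream and only at 6 h of TNFα, at 4.98-fold, on a 6.53-fold FOSL1 peak. The HMOX1 start itself had H3K27ac in all 5 lists, at 2.09-fold to 2.68-fold, and no RELA or RELB region.

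FTH1, the heavy chain of the iron-storage protein ferritin, lies on chromosome 11 from 61959718 to 61967634 on the minus strand, with RAB3IL1 and BEST1 in its window. Its strongest site, 5.20 kb upstream, had 11.5-fold RELA at 30 min and 7.03-fold at 6 h of TNFα, around a κB match and without FOSL1. The site 4.35 kb upstream had 3.70-fold at 30 min alone, with an AP-1 match and a 3.12-fold FOSL1 peak. H3K27ac was listed at both in all 5 conditions, at 1.81-fold in vehicle and 2.63-fold at 30 min of TNFα. The site 37.04 kb upstream had 5.39-fold RELA at 30 min alone, and H3K27ac was listed there only after TNFα, at 2.78-fold and 3.19-fold.

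**Figure D3:**
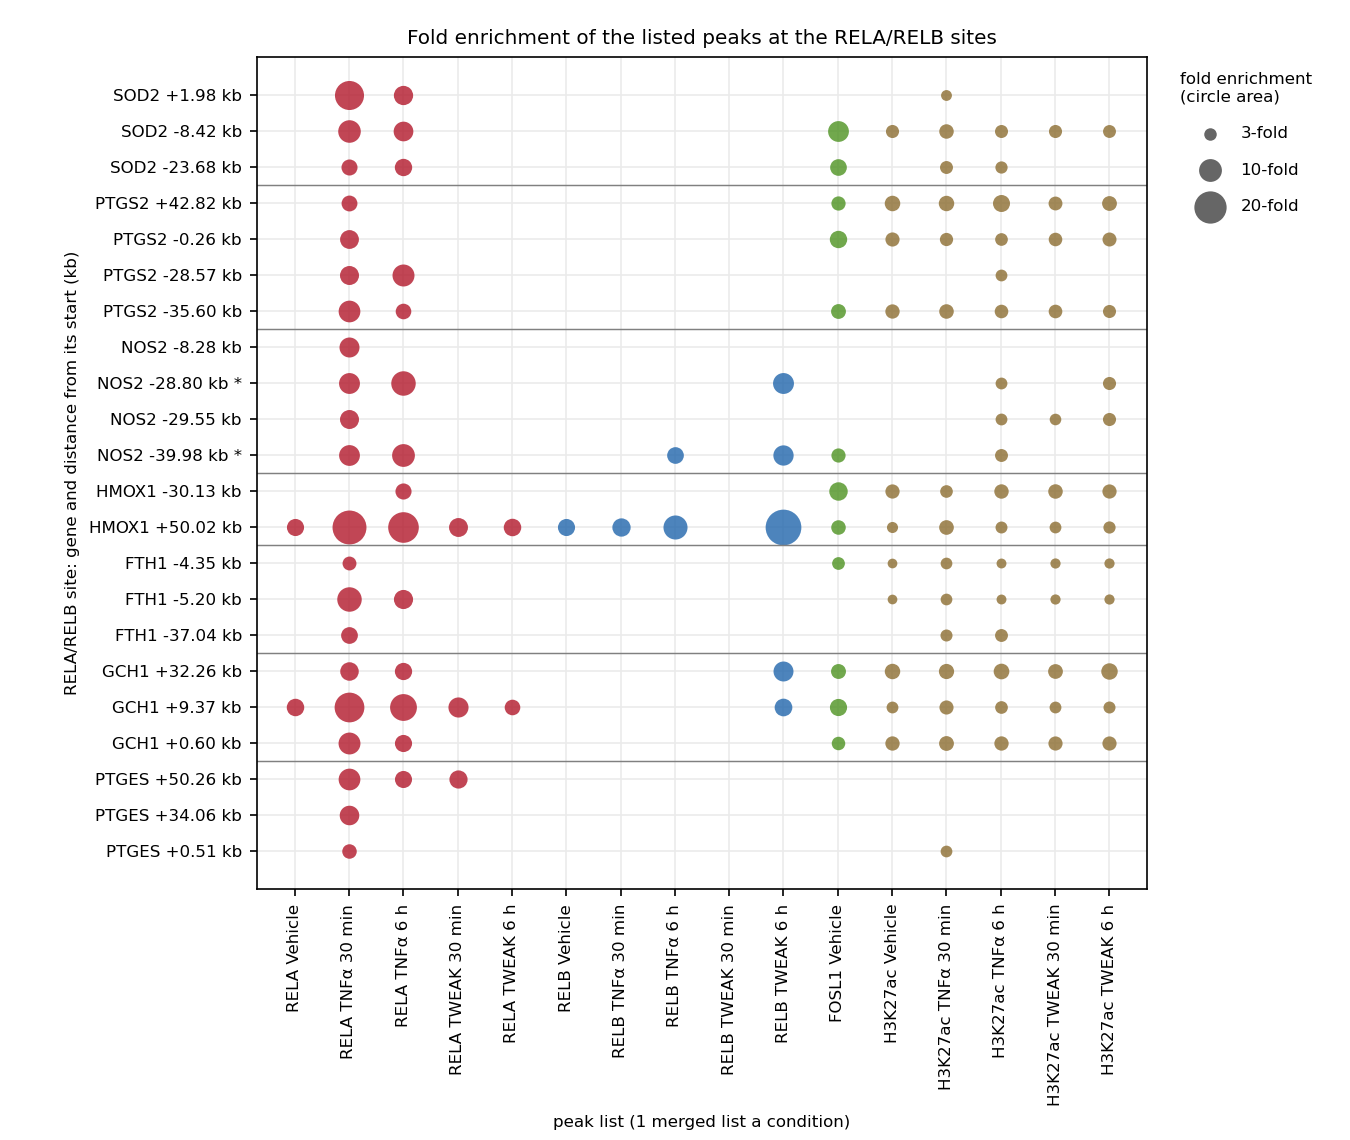
Circles mark the 22 sites (rows, named by gene and distance from its start) in the 16 lists (columns), with the area of a circle in proportion to fold enrichment and no circle where no peak was listed; RELA is red, RELB blue, FOSL1 green and H3K27ac brown, and asterisks mark the inverted copies near NOS2. The column of RELA at 30 min of TNFα is filled for 21 sites, and the HMOX1 site 50.02 kb downstream is filled in 9 of the 10 RELA and RELB columns.

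Most RELA regions of the early TNFα time were listed again at the later one, and 1 site, 30.13 kb upstream of HMOX1, was listed at the later time alone. Of the 21 regions at 30 min of TNFα, 13 overlapped a region at 6 h, against 45.2% of all 11266 regions and 35.3% of those outside tandem repeats, and with the NOS2 pair counted once it was 12 of 20. The 13 had a median of 9.06-fold at 30 min and ranged from 4.94-fold to 22.1-fold. The 8 without a region at 6 h had a median of 6.09-fold and ranged from 3.70-fold to 7.68-fold, so the ranges overlapped. Whether enrichment at 30 min has a part in this was not tested. Only 2 of the 21 overlapped a RELA region of vehicle, against 19.3% of all and 4.32% outside tandem repeats.

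All 5 sites of RELB at 6 h of TWEAK were also RELA sites at both TNFα times, or 4 of 4 with the NOS2 pair counted once, against 69.8% of all 4052 RELB regions of that list and 71.5% outside tandem repeats. Of the 21 RELA regions 5 overlapped them, or 4 of 20 with the NOS2 pair counted once, against 27.3% of all RELA regions and 15.7% of those outside tandem repeats. No site was called only after TWEAK. RELA after TWEAK was listed at the GCH1 site 9.37 kb downstream and at the HMOX1 site 50.02 kb downstream, which were also the 2 sites in vehicle, and at the PTGES site inside PRRX2.

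FOSL1 lay at 11 of the 21 RELA regions, against 58.0% of all RELA regions and 48.8% outside tandem repeats, a share near the background, and at 10 of 20 with the NOS2 pair counted once. All 7 genes had a FOSL1 peak in the window, 43 peaks in all, against 90.6% of all genes. The κB consensus was found within the 201 bp around 11 of the 21 summits, against 34.8% of all regions and 46.2% outside tandem repeats, and the AP-1 motif around 7, against 11.1% and 15.0%. With the pair counted once these were 10 and 6 of 20. Over the 22 sites, 8 had a κB match without an AP-1 match, 3 had both (2 with the pair counted once), 4 had an AP-1 match alone and 7 had neither. FOSL1 was listed at 4 of the 11 RELA regions with a κB match, or 3 of 10 with the pair counted once, against 34.3% of all such RELA regions, and at 7 of the 10 without, against 70.6%. Outside tandem repeats the shares were 34.2% and 61.4%, so the 7 genes were near the background in both. The FOSL1 list comes from vehicle, so it shows FOSL1 before either ligand.

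H3K27ac was listed within 500 bp of the summit at 10 of the 21 RELA regions in vehicle, against 60.1% of all and 63.2% outside tandem repeats. At 30 min of TNFα it was listed at 14, against 71.2% and 74.3%. A gain, meaning a peak at 30 min of TNFα and none in vehicle, was seen at 4 of the 21, against 13.1% of all and 12.1% outside tandem repeats. A loss was seen at 0 of the 21, against 2.03% and 0.999%. The gains were at the SOD2 sites 1.98 kb downstream and 23.68 kb upstream, the FTH1 site 37.04 kb upstream and the PTGES promoter site. Over the 22 sites H3K27ac was listed at 11 in vehicle, at 15 and then 17 over the TNFα course (16 with the pair counted once), and at 12 and then 13 over the TWEAK course. It was in all 5 lists at 11 sites and in none at 3, which were the NOS2 site 8.28 kb upstream and the PTGES sites inside PRRX2. No share over all RELA and RELB sites was computed for these counts over the 22 sites. Whether their course differs from that of the genome was not tested.

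H3K27ac peaks in the whole windows numbered 38 in vehicle, 50 and then 47 over the TNFα course, and 46 and then 44 over the TWEAK course. In the same order, the full lists held 59894, 53895, 61194, 55821 and 58021 peaks. All 7 genes had at least 1 peak in each list, where 91.5%, 90.2%, 91.5%, 90.6% and 91.1% of all genes did. Because a peak can split, the bases covered by peaks were also summed, a measure added after the peaks were seen. At 30 min of TNFα 6 of the 7 windows had more covered bases than in vehicle, against 19.2% of the 18462 genes in this comparison. The peaks of the whole genome covered 45.1 Mb at that time, against 55.5 Mb in vehicle. The median ratio to vehicle was 1.22 for the 7 genes and 0.847 for all genes.

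FTH1 had the highest ratio at 30 min of TNFα, from 5026 to 7329 bp or 1.46, and HMOX1 the lowest, from 7983 to 6823 bp or 0.855. At 6 h of TNFα 6 of the 7 windows had more covered bases, against 48.2% of the 18467 genes compared, and PTGES was the exception at 0.841. The median ratios were 1.23 for the 7 genes and 0.994 for all genes. NOS2 had the highest ratio at that time, 2.72, but on few bases, from 543 to 1478 bp. Its peaks of 441 and 411 bp at that time lie inside the inverted copies and cannot be counted as separate measurements. The covered bases were not recounted with the pair counted once. After TWEAK 4 of the 7 had more at 30 min, against 21.1% of 18445 genes, and 4 of 7 at 6 h, against 13.5% of 18433. The median ratios were 1.14 and 1.01 for the 7 genes and 0.876 and 0.874 for all genes. These lengths follow what was called in each list and were not tested.

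**Figure D4:**
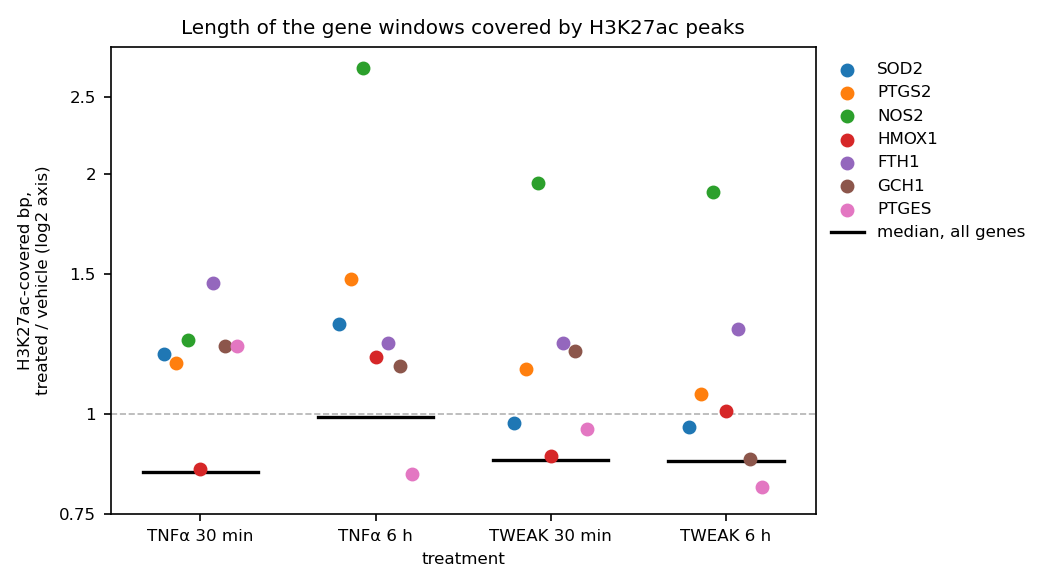
The ratio of bases covered by H3K27ac peaks in each gene window, treated over vehicle (vertical axis, log2 scale), after each treatment (horizontal axis), with 1 point per gene, black lines at the median of all genes and a dashed line at 1. At 30 min of TNFα 6 of the 7 points lie above 1, and the line of all genes lies at 0.847.

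A list of 42 related genes of the same pathways was read in the same way. RELA was listed near 21 of the 42 at 30 min of TNFα, a share near the 48.1% of all genes. It was listed near 11 at 6 h, where 26.8% of all genes had it, and near 3 in vehicle, where 5.05% did, and RELB was listed near 5 at 6 h of TWEAK, where 13.6% did. Genes with a RELA region at 30 min of TNFα that overlapped none of vehicle were 46.9% of all protein-coding genes and 19 of the 42, with 5 of 13 antioxidant enzymes, 6 of 10 heme and iron genes, 6 of 10 prostanoid genes and 2 of 9 nitric oxide and tetrahydrobiopterin genes. The strongest was ASS1, which makes argininosuccinate for arginine synthesis, at 17.2-fold and 0.79 kb downstream of its start. It was followed by the iron transporter gene SLC11A2 at 13.0-fold, the peroxiredoxin gene PRDX1 at 11.3-fold and the transferrin receptor gene TFRC at 11.3-fold. The prostaglandin E2 receptor gene PTGER4 had a region of 11.0-fold, the iron regulatory protein gene IREB2 10.7-fold, and LCN2, which encodes the siderophore-binding lipocalin, 10.6-fold at a region that also counts for PTGES2 next to it. Of these 8 only the PTGER4 region was also in the RELB list at 6 h of TWEAK. The NF-κB targets NFKBIA, TNFAIP3, CXCL8 and BIRC3 were read for comparison, and 4 of 4 had RELA at 30 min of TNFα. They were not specific to TNFα: 3 of 4 had RELA in vehicle, and 4 of 4 had it at 6 h of TNFα and at both TWEAK times. RELB was listed near 3 of 4 in vehicle, at 6 h of TNFα and at 6 h of TWEAK. At 30 min it was listed near 1 after TNFα and 0 after TWEAK.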

How the data were processed

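Per the labels and the study's methods, the authors aligned paired reads of 50 bases to hg38 with Bowtie2 2.5.0 and merged replicates. They called narrow peaks (RELA, RELB, FOSL1) or broad peaks (H3K27ac) against input with MACS2 at a cut-off of 0.05. The MACS2 version is not given in the sources used here. The deposited lists hold fold enrichment over input and −log10 q values for each peak, with no counts, so depth and replicate error are unknown. Positions were compared with GENCODE 44 on hg38. Overlap meant at least 1 shared base (checked against bedtools 2.31.1), H3K27ac at a site meant a peak within 500 bp of the summit, motifs were searched in 201 bp around the summit, and a tandem repeat was a 1000 bp window matching itself at a shift of up to 400 bp on 0.4 or more of its bases. The sequence of 1 further site is not reported here. Each 50-base stretch around a summit was looked up in all of hg38. The functions were tested on simulated data. Percentages over all genes or all regions are the background and no significance test was run, since each condition had 1 list. All 7 genes are described. A site was described in full if it was the strongest of its gene, called in vehicle, or called in at least 3 of the 10 RELA and RELB lists, and the other sites named were chosen after their values were seen. From the related genes, the 8 with the highest fold enrichment at a RELA region new at 30 min of TNFα were named. The genes and lists were chosen with earlier results of these data known. Alternatives were stricter peaks, other windows, other overlap rules and leaving out tandem repeats.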

Additional observations from a re-analysis of the deposited data

How the results depend on the processing

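Of 88 alternative values over 13 counts, 76 were within 1.5 times the reported count. The window mattered most. With 10 kb in place of 50 kb on either side, RELA regions fell to 11 at 30 min of TNFα, 7 at 6 h and 1 in vehicle, RELB regions to 2 at 6 h of TWEAK and 0 in vehicle, genes with RELB at 6 h of TWEAK to 1, genes with 3 or more RELA regions to 2, and RELA regions overlapping FOSL1 to 7 and RELB to 2. When RELA, RELB and FOSL1 peaks under 5-fold were left out, the genes with 3 or more RELA regions fell to 3, the RELA regions overlapping FOSL1 to 3 and those gaining H3K27ac to 2. No share over all genes or all regions was computed at these 2 settings. Whether the 7 genes still differ from the genome there was not tested. A q of at most 0.001, 100 kb windows, 50 kb around the start, stricter overlap, leaving out tandem repeats, and the NOS2 pair counted once (chosen after seeing the data, as were the alternatives for covered bases and for 3 or more regions) each kept all counts they were computed for within 1.5 times. No paired analysis was possible because the replicates of each condition were merged into 1 list. Depth, which sets how many weak regions are listed, is unknown.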
